A study of Saccharomyces cerevisiae with 10 samples.

Results

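The genes described here encode the proteins of the large subunit of the cytosolic ribosome of budding yeast, Saccharomyces cerevisiae. They were chosen by name alone, as every gene named RPL with a number and an optional A or B, or RPP with 0, 1 or 2 and an optional A or B. The rule matched 82 of the 7041 features of the expression table from ammonium and glucose medium. Of these, 81 encode large subunit proteins, 76 named RPL and 5 named RPP, and all counts below are over these 81 genes. The other match, RPP1, encodes a protein of RNase P and RNase MRP, enzymes that process RNA, and its values are given separately at the end. In the table of WT and jhd2Δ cells in raffinose, 77 of the 82 were named, and RPL4B, RPL11A, RPL14B, RPL36B and RPL42B were matched by their systematic identifiers.

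The study asked how JHD2, the gene of the enzyme that takes methylation off histone H3 at lysine 4, affects gene expression under different nutrients. Total RNA was sequenced with the strand kept after removal of ribosomal RNA. WT and jhd2Δ cells were grown in ammonium with glucose (YAD), glutamate with glucose (YGD) and ammonium with raffinose (YAR), with 3 replicate libraries of each genotype in the glucose media and 2 of each in raffinose. WT cells with an empty vector (EV) or with a plasmid that overexpresses JHD2 from the constitutive ADH1 promoter (OE) were grown in YAR, with 3 libraries each, and in YAD, where only the authors' group values were used. The labels give the strain BY4742 for all groups. They give mating type alpha to WT and mating type a to jhd2Δ in YAD and YGD, mating type a to both in YAR, and mating type alpha to EV and OE. The study's strain list instead gives both WT and the hygromycin-marked jhd2Δ strain as prototrophs of mating type alpha, and the EV and OE strain as a leu2 strain of mating type alpha. The study names a single strain for each genotype, while the labelled mating type of WT differs between YAR and the glucose media. Replicates are called biological in the study's methods, and p-values measure only the spread between these libraries.

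The large subunit joins amino acids into protein. It holds the peptidyl transferase centre, made of RNA and lined by a few proteins, a tunnel through which the new chain leaves, and a flexible stalk of acidic P proteins that contacts elongation factors. Most of its proteins in yeast come from a pair of duplicated genes, called A and B, that encode the same or nearly the same protein. Transcription of ribosomal protein genes is known to follow nutrient supply through Rap1, Fhl1, Ifh1 and Sfp1.

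The 81 genes formed 46 families, of which 35 were A and B pairs and 11 were single genes (RPL3, RPL5, RPL10, RPL25, RPL28, RPL29, RPL30, RPL32, RPL38, RPL39 and RPP0). They lay on 14 chromosomes, and 53 had an intron within the annotated coding region, of 147 to 927 bases in all. The coding sequences of the 2 copies were between 70.3% (RPP1A and RPP1B) and 99.4% (RPL1A and RPL1B) identical, with a median of 93.2%. Reads were 51 bases long, and a 51-base stretch found in both copies cannot be assigned to one of them by its sequence. Of the 51-base stretches of the A copy, the B copy held 80.6% for RPL1, 80.5% for RPL35, 72.3% for RPL4, 67.9% for RPL41, 60.6% for RPL11 and 56.5% for RPL7. In 11 pairs no such stretch was shared, and no single gene shared one with another coding sequence. Values of one copy of a near-identical pair are therefore uncertain.

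RPL41A and RPL41B, which encode one of the smallest proteins of the ribosome, show how little can separate 2 copies. Their coding sequences of 78 bases, on the minus strand at chrIV:130407-130484 and chrIV:221724-221801 of RefSeq R64, differ only by C9T, counted from the A of the start codon of RPL41A. The capital marks this base.
RPL41A: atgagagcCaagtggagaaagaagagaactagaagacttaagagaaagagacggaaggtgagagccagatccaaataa
RPL41B: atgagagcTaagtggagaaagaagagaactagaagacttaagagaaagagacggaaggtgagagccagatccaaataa

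The tables did not measure every gene over the same bases. In the table of WT and jhd2Δ cells in YAR, the 53 genes with an intron had a feature as long as the whole locus, intron included, 24 genes had the same length as in the other tables, and 4 (RPL24A, RPL24B, RPL29 and RPL32) had a feature that ended before the coding sequence began. RPL32, for example, was measured at chrII:45645-45977 on the plus strand, while its coding sequence is at chrII:45978-46370. RPL24A was measured at chrVII:437942-438397 on the minus strand and coded at chrVII:437467-437934. Read from RefSeq R64, the features of RPL24A, RPL24B and RPL32 began with GTATGT and ended with AG, the letters that begin and end most yeast introns. The locus listed for RPL29, chrVI:223441-223973, ended with AG but was longer than its feature of 331 bases. The first bases of the RPL29 feature itself were therefore not read. The ends of the RPL32 and RPL24A features are shown with these letters in capitals.
RPL32 first bases of the YAR feature: GTATGTgacatatagaatgctagaatgaat
RPL32 last bases of the YAR feature: taattttcatttttttttttttttgattAG
RPL24A first bases of the YAR feature: GTATGTccctatatgatgatgattcataat
RPL24A last bases of the YAR feature: aatatgtttgaaaaacgtggattaatatAG
The locus-long features of RPL7A and RPL7B also covered the small nucleolar RNA genes SNR39 (chrVII:365163-365251) and SNR59 (chrXVI:173827-173904), which lie in them on the same strand.

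**Figure D1:**
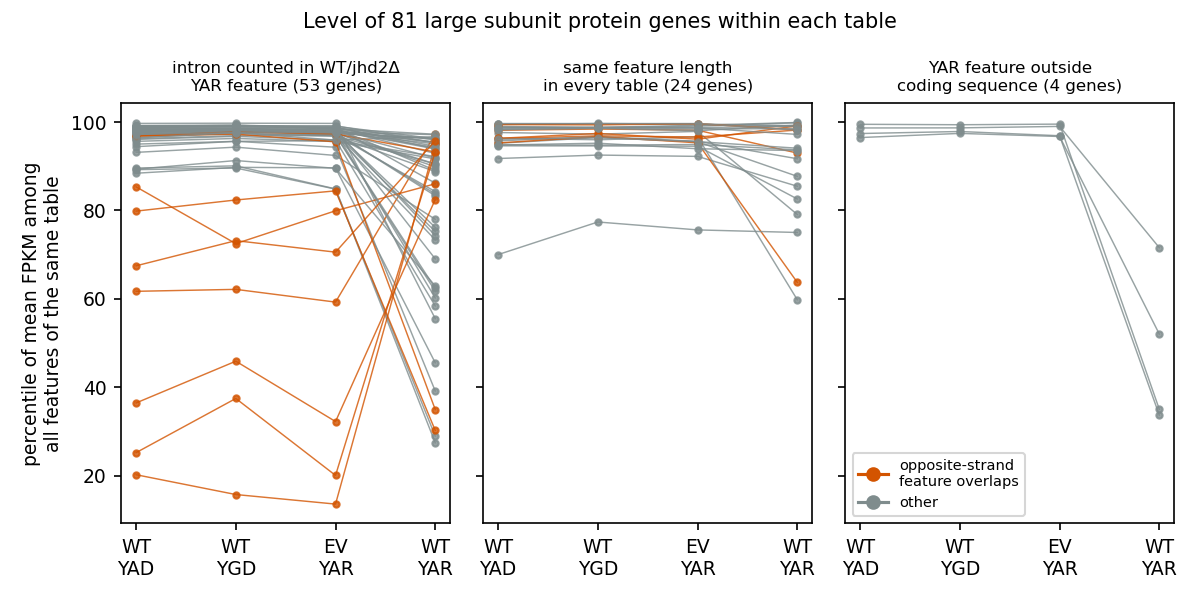
Percentile of the control group's mean FPKM among all features of the same table, for each of the 81 large subunit protein genes, by table and by how the feature in the YAR table relates to the one in the other tables, with lines joining the values of a gene and orange marking genes that a feature on the opposite strand overlaps. In YAD the median was at percentile 97.34, 96.99 and 98.03 for genes with an intron-long feature, the same feature and a feature at another position, and in YAR it was at 89.9, 95.64 and 43.52.

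Levels are in FPKM, fragments per kilobase of feature scaled to the mapped fragments of the library. They are per length and can be set against each other within a table where features cover the coding bases. In the table of WT and jhd2Δ cells in YAR, only the 24 genes with the same length as elsewhere meet this. In WT cells in YAD the median gene of the 81 had 1067 FPKM, at percentile 97.4 of all features. The highest were the stalk proteins RPP1B (8847 FPKM), RPP2A (8139) and RPP1A (5843), then RPL29 (5534) and the stalk protein RPP2B (5066). In WT cells in YGD RPP1B was again highest at 10740 FPKM, followed by RPP2B, RPP2A, RPP1A and RPL29. In EV cells in YAR the order was RPP1B (6389), RPP2A (5999), RPP0 (5505), which is the base of the stalk, RPP1A (4794) and RPL29 (4599). In the table of WT and jhd2Δ cells in YAR, RPL41B (12530 FPKM), RPL41A (6268), RPL15A (1937), RPP1A (1700) and RPL10 (1665) were highest in WT. RPP1B, an intron gene, had only 36.06 FPKM there, and RPL29 only 14.99.

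At the low end, the 5 lowest genes in the controls of the YAD, YGD and EV tables all shared bases with a feature on the opposite strand. In WT cells in YAD they were RPL22A (3.41 FPKM), RPL43A (4.61), RPL36B (7.21), RPL28 (17.6) and RPL33A (22.5). Across the 6 YAD libraries RPL33A had 18.4 to 27.3 FPKM, while the feature on the other strand, YPL142C, had 2348 to 2698. RPL28 had 12.7 to 20.8 against 453 to 805 for YGL102C, and RPL22A had 0.996 to 4.73 against 466 to 651 for BUD28. Of the 14 genes with a partner on the opposite strand, the partner was the higher of the pair in 7 in YAD, 7 in YGD and 7 in the EV and OE table. In the table of WT and jhd2Δ cells in YAR it was the higher in 0 of 14, and RPL28 had 562 to 1509 FPKM there against 0.908 to 3.65 for YGL102C. How strand was treated in counting was not given in the sources used here, so reads of these genes and of their partners cannot be told apart. The lowest genes in WT in YAR were RPL35A (8.26 FPKM), RPL35B (9.63), RPL7B (10.7), RPL24A (13.9) and RPL36A (14.9). Only RPL7B and RPL36A of these have an opposite-strand partner. RPL24A was measured outside its coding sequence there and the others over intron-long features, so these values are not levels of the coding bases.

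JHD2 itself was at 3.97 to 17.5 FPKM in the WT libraries, at 0 to 0.0486 in the jhd2Δ libraries, at 27.6 to 35.8 in EV and at 1503 to 2213 in OE. Genes specific to a cells were higher in jhd2Δ in YAD and YGD (6 of 7 called) and those specific to alpha cells lower (5 of 5 called), as the mating types in the labels differ. In those media the deletion and the mating type cannot be told apart. In YAR 1 of 7 a-specific and 1 of 4 alpha-specific genes were called, both lower. The 81 genes made up 7.84% to 8.89% of the FPKM sum of a YAD library and 8.37% to 9.34% of a YGD library, except 12.04% in WT YGD replicate 3, whose FPKM sum was the lowest of that table and whose scale factor was 1.59. Read depth is not known from FPKM values, so no counting intervals are given.

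In YAR, most large subunit protein genes were higher in jhd2Δ than in WT cells. A gene was called where limma gave a Benjamini-Hochberg adjusted p under 0.05 over all 5846 features tested and the fold was over 1.4. Of the 81 genes 46 were higher and 4 lower, while of all features 13.8% were higher and 8.6% lower. The median log2 fold change was 0.70 over the 81 genes and -0.01 over all features, and it was above 0 for 75 of the 81. The 81 genes together took 5.81% and 5.0% of the FPKM sum in the WT libraries and 6.05% and 6.78% in the jhd2Δ libraries. In bulk RNA, a change in the share of cells in a given state and a change in the RNA of each cell cannot be told apart.

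**Figure D2:**
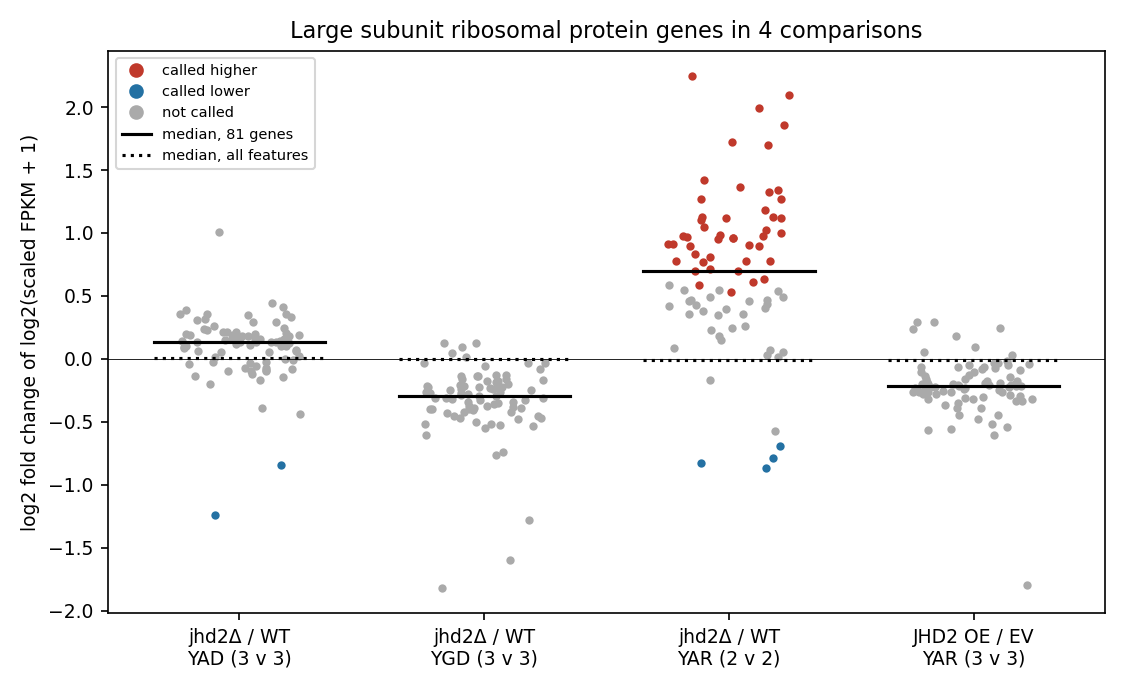
Log2 fold change of each of the 81 large subunit protein genes (points) in each replicate comparison, on log2(FPKM + 1) after library scaling, with called genes marked. In YAR 46 genes were called higher and 4 lower around a median of 0.70, while 0 were called higher in YAD, YGD and the OE comparison.

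Both copies of RPL9, whose protein lies near the base of the stalk, were among the 3 genes with the largest rises, with RPL30. RPL9B (chrXIV:499681-500256) had 134 and 92.4 FPKM in WT and 527 and 535 in jhd2Δ, and was 4.74-fold higher (log2 2.24, SE 0.21, limma adjusted p = 4.15e-06). RPL9A (chrVII:227754-228329) had 276 and 188 FPKM in WT and 813 and 1012 in jhd2Δ, 3.97-fold higher (SE 0.23 on the log2 scale, limma adjusted p = 4.3e-05). Both genes have no intron and the same feature in every table. In both, each jhd2Δ library lay above each WT library.

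RPL30 (chrVII:439091-439638), whose protein binds its own transcript and holds back its splicing, had 454 and 331 FPKM in WT and 1561 and 1756 in jhd2Δ, 4.27-fold higher (SE 0.23, limma adjusted p = 2.1e-05). RPL7A (chrVII:364335-365996), the intron gene that also holds SNR39, had 22.4 and 14.3 FPKM in WT and 69.8 and 65.4 in jhd2Δ, 3.62-fold higher (SE 0.20, limma adjusted p = 4.4e-05). For these intron genes the YAR values include intron bases, and spliced and unspliced RNA cannot be told apart. RPL38 (chrXII:781143-781379), a small single-copy protein gene with no intron, had 1830 and 1301 FPKM in WT and 4971 and 5236 in jhd2Δ, 3.3-fold higher. RPL42A (chrXIV:331322-332154) had 142 and 101 FPKM in WT and 355 and 427 in jhd2Δ, 3.24-fold higher. In each of these 4 genes both jhd2Δ libraries lay above both WT libraries.

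Genes for proteins near the catalytic centre rose with them. RPL10 (chrXII:282927-283592), a protein added late to the subunit in the cytoplasm, had 1915 and 1415 FPKM in WT and 4100 and 4761 in jhd2Δ, 2.68-fold higher (SE 0.24, limma adjusted p = 0.00081). RPL2B (chrIX:316768-317932) had 528 and 345 FPKM in WT and 916 and 1328 in jhd2Δ, 2.58-fold higher. RPL3 (chrXV:444686-445849) had 1282 and 910 FPKM in WT and 2647 and 2786 in jhd2Δ, 2.51-fold higher. With RPL2A, at log2 0.49 and not called, 3 of the 4 genes of this group were called higher. RPL28, whose protein is the target of changes that give cycloheximide resistance, was 2.41-fold higher.

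All 5 stalk genes named RPP were called higher. RPP2B was 2.41-fold higher, RPP2A 2.27-fold, RPP1A 2.19-fold, RPP0 1.93-fold and RPP1B 1.72-fold. RPP1A had 2041 and 1359 FPKM in WT and 3264 and 4077 in jhd2Δ. The 2 copies of RPL12, which with RPP0 form the stalk base, were at log2 0.35 and 0.49 and were not called. Of the single-copy genes 9 of 11 were called higher, with RPL25, which sits at the tunnel exit, at 2.04-fold, RPL32, measured before its coding sequence, at 1.95-fold and RPL39, a tunnel protein, at 1.52-fold. RPL5, which carries 5S ribosomal RNA into the subunit with RPL11, had 685 and 509 FPKM in WT and 629 and 628 in jhd2Δ, and the groups overlapped. RPL29 had 17.3 and 12.7 FPKM in WT and 12.2 and 7.54 in jhd2Δ, measured outside its coding sequence.

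Of the 14 genes for tunnel proteins 7 were called higher and 0 lower, with a median of log2 0.57. Of the 7 subunit bridge genes 3 were higher and 1 lower, of the 3 genes for 5S particle proteins 1 was higher (RPL11A, 1.97-fold), and both RPL40 genes, which encode ubiquitin joined to a ribosomal protein, were higher at 1.88-fold and 1.62-fold. These groups were assembled from known roles with earlier results of these data in view, and their counts are a description. Over all 81 genes 46 were higher and 4 lower, with a median of log2 0.70, beside 13.8% and 8.6% of all features. Whether any group differed from the 81 genes was not tested.

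The 4 genes that fell were all one copy of a pair. RPL41B had 12400 and 12660 FPKM in WT and 8073 and 5877 in jhd2Δ, 1.82-fold lower (log2 -0.86, SE 0.25, limma adjusted p = 0.025). RPL33A had 442 and 386 FPKM in WT and 215 and 250 in jhd2Δ, 1.78-fold lower. RPL15B (chrXIII:509734-510348) had 69.1 and 87.8 FPKM in WT and 42.5 and 46.9 in jhd2Δ, 1.73-fold lower (SE 0.18, limma adjusted p = 0.0069). RPL34A (chrV:269423-270185) had 77.5 and 86.8 FPKM in WT and 46.7 and 54.6 in jhd2Δ, 1.61-fold lower. In each of these 4 the jhd2Δ libraries lay below both WT libraries.

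The rises were found in genes measured over the same bases and in those that were not. Of the 53 genes with an intron-long feature 31 were higher and 2 lower (median log2 0.77), of the 24 with one feature throughout the tables, 13 were higher and 2 lower (median 0.71), and of the 4 at another position 2 were higher. Among the 66 genes that no other feature overlaps 38 were higher and 3 lower. The calls rested on the WT libraries. Without WT YAR replicate 1, 7 genes were called higher (RPL7A, RPL9A, RPL9B, RPL14A, RPL30, RPL38 and RPL42A) and 0 lower. Without WT YAR replicate 2 only RPL9B was called higher and 0 genes lower, where the single WT library left was taken to vary like the jhd2Δ pair. The median of the 81 genes was log2 0.83 and 0.50 in these fits. Scaling libraries to the summed FPKM of all other genes shifted the median of all features to -0.30 and that of the 81 genes to 0.40, with 30 genes called higher.

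**Figure D3:**
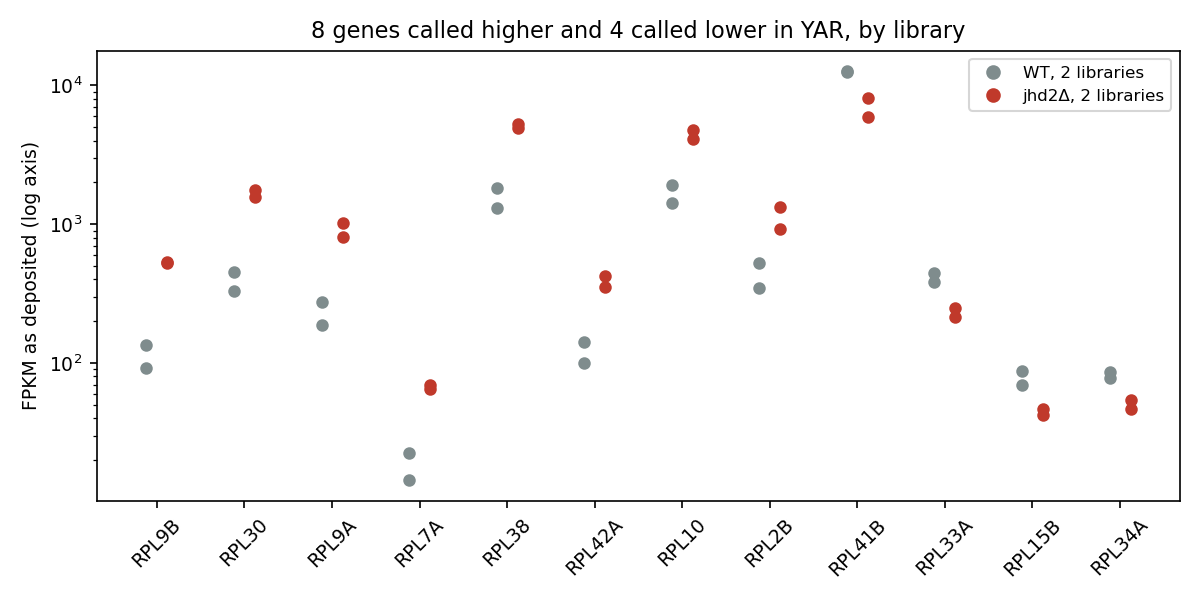
FPKM of the genes with the largest changes in YAR, on a log axis, in each of the 2 WT and 2 jhd2Δ libraries. In RPL9B the WT libraries were at 134 and 92.4 and the jhd2Δ libraries at 527 and 535, and in RPL41B the WT libraries were at 12400 and 12660 and the jhd2Δ libraries at 8073 and 5877.

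The 2 copies of a pair often differed in call in YAR, although 65 of the 70 genes in pairs had a log2 fold change above 0. Both copies were higher in 9 of the 35 pairs, one was higher and the other not called in 17, one was lower and the other not called in 2, one rose and the other fell in 2, and neither was called in 5. The median difference between the log2 fold changes of A and B was 0.52 in YAR, against 0.12 in YAD, 0.09 in YGD and 0.11 in the OE comparison. These differences were not themselves tested.

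The RPL15 pair showed the widest difference. RPL15A, which held nearly all of the pair's FPKM, rose 1.86-fold from 2011 and 1862 to 3200 and 4050 FPKM while RPL15B fell, so that the A copy's share went from 96.7% and 95.5% in WT to 98.7% and 98.9% in jhd2Δ. In the RPL34 pair the direction was the opposite one. RPL34B rose from 48.9 and 42.3 to 76.4 and 79.8 FPKM, and the share of the A copy went from 61.3% and 67.2% to 37.9% and 40.6%. The share of RPL33A went from 62.3% and 65.8% of its pair to 37.8% and 42.1%, while RPL33B, at log2 0.59, had an adjusted p of 0.051 in limma and was not called. The share of RPL41A went from 37.5% and 28.7% to 50.7% and 62.5%, in a pair where most reads fit either copy. RPL41A itself had 7441 and 5095 FPKM in WT and 8311 and 9794 in jhd2Δ and was not called. In the near-identical pairs RPL1, RPL4 and RPL35 the log2 fold change of A minus that of B was -0.46, 0.06 and 0.24. Over the 8 pairs sharing over 40% of their 51-base stretches, the median absolute difference was 0.63. It was 0.38 over the 10 pairs sharing 10% to 40% and 0.52 over the 17 sharing under 10%.

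**Figure D4:**
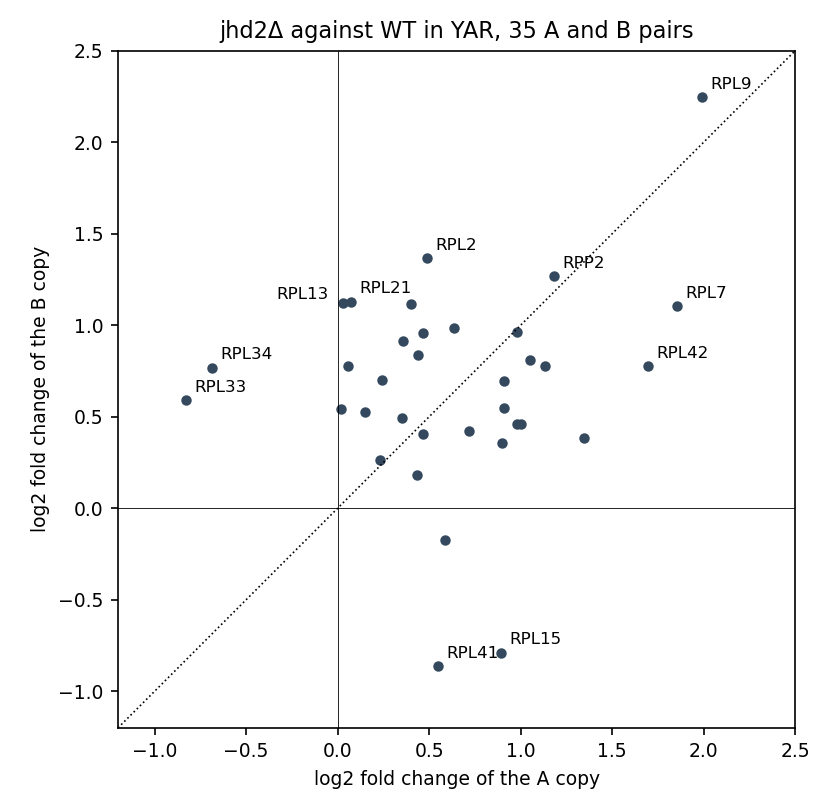
Log2 fold change of the B copy against that of the A copy for the 35 A and B pairs in YAR, jhd2Δ against WT, with a dotted line where both copies are equal. RPL9 and RPL7 are above 1 on both axes, and in RPL15, RPL33, RPL34 and RPL41 one copy is above 0 and the other below it.

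In YAD few of these genes passed the test. None of the 81 was called higher and 2 were called lower in limma, while 1.68% of 6185 features were higher and 4.04% lower. The median log2 fold change was 0.13, against 0.01 over all features. Values above 0 were found for 58 of the 81 genes and for 3188 of the 6185 features. In limma 23 of the 81 genes had an unadjusted p under 0.05, as had 1777 of the 6185 features, a similar share. The median of the 81 genes was 0.05 without jhd2Δ YAD replicate 1, and 0.12 to 0.19 without any other single library. RPL39 had 89.5, 75.9 and 61.7 FPKM in WT and 36.4, 21.9 and 33.5 in jhd2Δ, 2.36-fold lower (log2 -1.24, SE 0.24, limma adjusted p = 0.032). It is one of the genes with a partner on the other strand, BUD19, at 885 to 1110 FPKM. RPL41A had 3316, 2390 and 2395 FPKM in WT and 1412, 1252 and 1660 in jhd2Δ, 1.79-fold lower (SE 0.15, limma adjusted p = 0.022). Its near-identical copy RPL41B had 2979 FPKM on average in WT and 2085 in jhd2Δ and was not called. Both calls were lost without WT YAD replicate 1, without WT YAD replicate 2 and without jhd2Δ YAD replicate 3 (0 called lower in each), 1 remained without jhd2Δ YAD replicate 1 or 2, and 4 genes were called lower without WT YAD replicate 3. By the authors' group FPKM past 1.4-fold, with no test, 1 gene was higher and 3 were lower, with 2.78% of 6184 features higher and 5.09% lower. The median log2 ratio of these group values was -0.09 over the 81 genes and -0.08 over all features.

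Some genes passed the adjusted p in YAD but not the fold. RPL9B had 415, 337 and 402 FPKM in WT and 456, 481 and 468 in jhd2Δ. Its adjusted p in limma was 0.047 and its fold of 1.27 was under the threshold. RPL21B had 779, 630 and 750 FPKM in WT and 981, 940 and 884 in jhd2Δ, a fold of 1.36 with an adjusted p of 0.049. In both genes every jhd2Δ library was above every WT library. RPL43A, at 5.88, 2.45 and 5.5 against 10.0, 10.3 and 8.0 FPKM, had the largest positive fold, 2.01, with an adjusted p of 0.061. The pairs whose copies differed most were RPL43, RPL22, RPL41 and RPL9, and in the first of these, as in RPL22, the A copy was at a low level with a stronger feature on the other strand. The A copy's share of RPL9 went from 56.8% to 60.7% in WT to 52.1% to 54.8% in jhd2Δ.

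In YGD no large subunit protein gene was called in either direction by limma, with 0.193% of 6213 features higher and 0.145% lower. An unadjusted p under 0.05 was found in limma for 4 of the 81 genes and for 426 of the 6213 features. The median log2 fold change was -0.29, against -0.0002 over all features, and only 5 values were above 0. Without WT YGD replicate 3, the library with the raised share of these genes, the median was -0.13. RPL41B had 2189, 2815 and 2886 FPKM in WT and 1098, 1148 and 518 in jhd2Δ, with a log2 fold change of -1.82 (SE 0.40) and an adjusted p of 0.38 in limma. The groups of RPL41B did not overlap, and those of RPL41A, at 1391 to 3692 in WT and 729 to 1432 in jhd2Δ, did. RPL39 had 29.4, 34.6 and 22.8 FPKM in WT and 5.39, 23.2 and 8.48 in jhd2Δ, with an adjusted p of 0.59. The pairs that differed most were RPL41, RPL36, RPL17 and RPL37. Without any library scale the median of all features was 0.20 and that of the 81 genes -0.07, so the genes stayed below the median of the table. By the authors' group FPKM past 1.4-fold, with no test, 20 were lower and 0 higher, with 6.6% of 6180 features lower and 4.09% higher. The study, by a different test, reported that the mRNAs lowered in jhd2Δ in YGD were enriched for ribosomal protein genes.

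The effect of jhd2Δ on these genes differed between YAR and YAD by a test of the difference itself. Of the 81 genes 35 had a higher and 3 a lower log2 fold change in YAR than in YAD, while 15.3% of 5702 features had a higher and 10.2% a lower one. The largest differences were in RPL9A (log2 1.99 in YAR and -0.02 in YAD, difference 2.01, SE 0.25, limma adjusted p = 0.00052), RPL30 (2.09 and 0.14, difference 1.96), RPL9B (2.24 and 0.35, difference 1.90) and RPL39 (0.61 and -1.24, difference 1.85). The 3 lower were RPL15B, RPL33A and RPL34A. Of the genes named here, RPL39 and RPL33A share bases with a feature on the other strand. For RPL39 this feature, BUD19, averaged 997 FPKM in the YAD libraries and 0.98 in the YAR libraries. For RPL33A it was YPL142C, at 2584 and 0.79. The reads counted for these genes may therefore differ between YAD and YAR, which was not tested. The mating types in the labels also differ between these tables, and so do the features of 57 of the 81 genes, but not those of RPL9A and RPL9B. Between YGD and YAD no gene of the 81 was called by limma, where 0.049% of 6121 features were higher and 0 lower. The median difference was log2 -0.41 over the 81 genes and 0.01 over all features. Only 1 of the 81 differences was above 0. An unadjusted p under 0.05 was found in limma for 19 of the 81 genes and for 586 of the 6121 features. With so few features called, the lack of calls does not show that the effects were equal.

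Overexpression of JHD2 in YAR moved none of the 81 genes past the test. None was called higher or lower by limma, where 0.0158% of 6331 features were higher (1 feature, JHD2) and 0 lower. In limma 2 of the 81 genes had an unadjusted p under 0.05, as had 904 of the 6331 features. The median log2 fold change was -0.21, against -0.01 over all features, and 8 values were above 0. RPP0 had 7288, 5337 and 3891 FPKM in EV and 4243, 3839 and 3502 in OE (log2 -0.60, SE 0.23, limma adjusted p = 0.33). RPL4A, a tunnel protein, had 1922, 1556 and 976 in EV and 1183, 1037 and 975 in OE. In both, EV replicate 1 was highest, and in that library the 81 genes took 10.4% of the FPKM sum, against 6.78% to 8.97% in the other 5. Without it the median was -0.06. With libraries scaled to the summed FPKM of other genes, the median of all features was 0.26 and that of the 81 genes 0.07, above 0. RPL39 was listed at 0 in OE replicate 1, and had 44.5 and 92.8 FPKM in the other OE libraries and 88.3, 22.3 and 70.9 in EV. The pairs that differed most were RPL15, RPL7, RPL43 and RPL34. By the authors' group FPKM past 1.4-fold, with no test, 41 genes were lower and 1 higher, with 30.1% of 6182 features lower and 6.21% higher, and the median log2 ratio was -0.49 over the 81 genes and -0.29 over all features.

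For the glucose and raffinose cultures of EV cells, and for OE against EV in YAD, the authors' group FPKM give one value per group and no test. In EV cells in YAR against YAD, 0 of the 81 genes were over 1.4-fold higher and 49 were over 1.4-fold lower, while of 6254 features 7.05% were higher and 67% lower. The median log2 ratio was -0.61 over the 81 genes and -0.77 over all features, so that relative to the median feature the genes were not lower. RPL2B went from 3414 to 1336 FPKM, RPL5 from 2729 to 1176, RPL41B from 8012 to 3419 and RPL22A from 3.55 to 0.965. With OE against EV in YAD, 4 genes were over 1.4-fold lower and 0 higher, while 2.12% of 6238 features were higher and 6.65% lower. RPL39 went from 73.0 to 30.9 FPKM, RPL43A from 5.16 to 2.38, RPL22A from 3.36 to 1.98 and RPL36B from 6.14 to 3.80. All 4 share bases with a feature on the other strand.

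Which copy of a pair was the more abundant was alike in the 3 tables with the same features. In 29 of the 35 pairs the same copy led in the controls of YAD, YGD and the EV and OE table, and in 19 it also led in WT in YAR. In 15 pairs the leading copy in YAR differed from that in YAD.

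The 56 genes for small subunit proteins were counted beside them. In YAR 34 were higher and 4 lower with a median of log2 0.85, in YAD 1 was higher and 0 lower with a median of 0.17, and in YGD and the OE comparison 0 were called, with medians of -0.28 and -0.22. Of 42 large subunit assembly factors, which build the subunit in the nucleolus and nucleus, 2 were higher in YAR (NOG2, log2 1.75, and NIP7, log2 1.22) and 4 were lower (MAK16, RPF1, EBP2 and BRX1), beside the 13.8% of all features higher and 8.6% lower in that comparison, so neither count is a result about the group. Their median was -0.16, and none of 7 dedicated chaperones of large subunit proteins was called. Of 12 regulators of ribosomal protein genes HMO1, an HMG-box protein bound at many of their promoters, was higher in YAR at log2 0.60, and SCH9, a nutrient-responsive kinase, and TOD6, a repressor of ribosome biogenesis genes, were lower at -0.77 and -0.66. With 1 of 12 higher and 2 lower against the same shares of all features, these counts too are only a description. SCH9 was also lower in YAD at -0.63. In the OE comparison 41 of 42 assembly factors had a log2 fold change above 0, with a median of 0.44, and 0 were called. Over all features 3119 of 6331 were above 0, with a median of -0.01.

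The bases before the start codon were searched for ACACCCA, the core letters of many binding sites of Rap1, the general activator of ribosomal protein genes. Within 500 bases and on either strand it was found in 15 of the 81 genes (18.5%), in 21.4% of small subunit genes and in 4.3% of 6025 coding genes. RPL7A, one of the most raised genes in YAR, held it on its own strand. The other raised genes RPL9A, RPL9B, RPL30, RPL38, RPL42A, RPL10 and RPL3 held no match. The match is shown in capitals with flanks, from RefSeq R64 at chrVII:366233-366259, minus strand.
RPL7A: gatcatataaACACCCAcacatatcta
In YAR, 10 of the 15 genes with these letters were higher, and 36 of the 66 without them. A match is a description of letters and not a bound site.

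RPP1, the RNase P and RNase MRP gene that shares only the name, had 4.96 to 6.66 FPKM in the YAD libraries and 15.1 to 25.6 in the 4 libraries of the jhd2Δ comparison in YAR, and was called in no comparison.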

How the data were processed

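The authors sequenced stranded total RNA in single-end reads of 51 bases and processed it with FastQC 0.10.1, TopHat2 2.0.12, Bowtie2 2.1.0, Cufflinks 2.1.1 and Cuffdiff 2.1.1, per the labels and the study's methods. The deposited values used here are FPKM per replicate and, for EV in YAD and OE in YAD, FPKM per group. The series design mentions RNA spike-in controls, which were not used here. The strand setting was not given in the sources used here. Columns of the authors' fold changes and p-values were not used. The 6 replicate columns of the YAD overexpression table held the values of the YAR table for 7041 of 7041 features and were left out.

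Each table was normalised separately, so it was tested on its own. FPKM were multiplied by a library scale, the median over features detected throughout a table of the ratio to their geometric mean. Features whose mean FPKM reached 1 were tested on log2(FPKM + 1) with limma 3.58.1 in R 4.3.3 (lmFit, eBayes with trend and robust), two-sided, with Benjamini-Hochberg adjustment over all features. Fold changes are on this scale and understate the change of low genes. A call needed an adjusted p under 0.05 and a fold over 1.4. The scripts were tested on simulated data. Loci in the YAD, YGD and overexpression tables equalled RefSeq R64 for 6033 of 6045 features compared, and in the YAR table of WT and jhd2Δ for 5337 of 6006. Genes named with their values were, in each comparison, the 8 called members with the largest change in each direction, the 4 pairs whose copies differed most, the 5 highest and 5 lowest in the controls, the single-copy and stalk genes, genes listed at 0 and genes at another position. RPL9B, RPL21B and RPL43A in YAD, RPL41A, RPL41B and RPL39 in YGD, RPL4A in the OE comparison, RPL2A, RPL11A, RPL12, RPL40 and the pairs RPL1, RPL4 and RPL35 in YAR, and the genes of the group comparisons were chosen after their values were seen. The members and gene lists were chosen with earlier results of these data known.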

Additional observations from a re-analysis of the deposited data

Results flagged for a closer look

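The effect of jhd2Δ differed between YAR and YAD for 38 of the 81 large subunit protein genes in limma, 35 of them with a higher fold change in YAR and 3 with a lower one. The median difference was log2 0.59 over the 81 genes. The tables differ in mating type as labelled, in the number of replicates and in the features of most of these genes, and the part of each in the result was not tested.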

How the results depend on the processing

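Leaving out each replicate in turn gave 1 to 42 genes higher and 0 to 3 lower in YAR, 0 to 4 lower in YAD, and 28 to 47 that differed between YAR and YAD. In YGD and in the OE comparison none was called in any such fit. With replicate numbers as a replicate block, 8 were higher and 0 lower in YAR and 1 was lower in YAD. Whether the numbers pair the samples was not settled, as so few libraries per group cannot decide it. The correlation of same-numbered deviations was -0.04 in YAR, where 2 libraries per group give a single value. It was -0.105 to 0.098 in YGD, 0.059 to 0.158 in YAD and -0.045 to 0.162 in the OE table. Scaling to the summed FPKM of genes other than ribosomal protein genes gave 30 higher in YAR. With no fold threshold 2 were higher in YAD. By the authors' group FPKM past 1.4-fold, with no test, 1 was higher in YAD (2.78% of features), 20 were lower in YGD (6.6%), and in the OE comparison in YAR 41 were lower (30.1%) and 1 higher (6.21%), where the median over all features was log2 -0.29. With a fold of 2, 9 were lower in EV YAR against EV YAD and 2 in OE against EV in YAD. Dividing by the median ratio gave 12 higher and 2 lower in EV YAR against EV YAD. Among genes with the same feature length, a choice made after seeing the data, 1 was lower in YAD and 13 were higher and 2 lower in YAR. Among genes with no overlapping feature, also chosen after seeing the data, 1 was lower in YAD. None of the 50 genes called in YAR or the 2 called in YAD changed sign in the alternative limma fits. For genes that were not called, sign changes were not counted, and scaling to the summed FPKM moved the median of the 81 genes from log2 -0.21 to 0.07 in the OE comparison.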
